A study of Arabidopsis thaliana with 6 samples.

Results

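Root hair extensins were examined here as 9 extensin-like loci of the root hair cell wall, taken from a list of loci. Of the 9, 5 have a probe set annotated to them alone on the array (AT5G06630, AT3G28550, AT3G54580, AT1G23720 and AT4G08410), out of 13286 loci measured in this way. The other 4, AT4G13390 (EXT12), AT5G06640 (EXT10), AT2G24980 (EXT6) and AT5G35190 (EXT13), have no such probe set in the annotation used and are not analysed here. The RNA came from whole roots of Arabidopsis seedlings of 7 d, either wild type (Col) or carrying the mutant allele spy-3 in the same Col ecotype. Both genotypes were grown on vertical MS plates without treatment. Affymetrix ATH1 arrays were used, 3 for each genotype, and the methods call the replicates biological. Nothing states whether they were separate harvests, so the p-values reflect the spread between these arrays. Only 1 spy allele was profiled.

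Extensins are hydroxyproline-rich glycoproteins of the plant cell wall. Their serine-proline repeats are hydroxylated and then carry arabinose chains, and tyrosine residues between the repeats are crosslinked by peroxidases, which locks the proteins into a network. In the root epidermis a set of extensin genes is known for its expression in trichoblasts, the cells that form root hairs, where the wall is laid down at the growing tip. SPY encodes an enzyme that adds a sugar to other proteins and is known as a repressor of gibberellin signaling.

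SPY itself had signals of 258.2, 251.7 and 292.3 in wild type and 244.9, 316.7 and 294.4 in spy-3, so the genotypes overlapped, and its level does not check the labels, because a mutant allele may leave the transcript in place. The array medians were 85.4 to 87.2 and the values had been brought to a common mean by the authors. Arrays of 1 genotype had correlations of 0.958 to 0.966 across probe sets (log2 signals), and arrays of unlike genotype 0.952 to 0.963.

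All 5 measured extensins had lower signals in spy-3, with no overlap between the genotypes for any of them. Among all 22746 probe sets, 11.5% had every spy-3 signal below every wild type signal. The differences of 3 of the 5 passed an adjusted p of 0.05 in limma, against 3.13% of all probe sets that were lower by the same rule. None of the 5 was higher by this limma rule, against 2.64% of all probe sets. At an unadjusted p of 0.05 in limma, and by the adjusted analysis of variance, the number higher was also 0. Among the 11373 probe sets above the median signal, where all 5 lie, 5.42% were lower and 15.6% had spy-3 wholly below wild type. The median log2 fold change of the 5 was -0.42, while that of all probe sets was 0.02. The loci were listed with earlier results of these arrays known, so these counts are a description of the loci and not independent support.

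**Figure D1:**
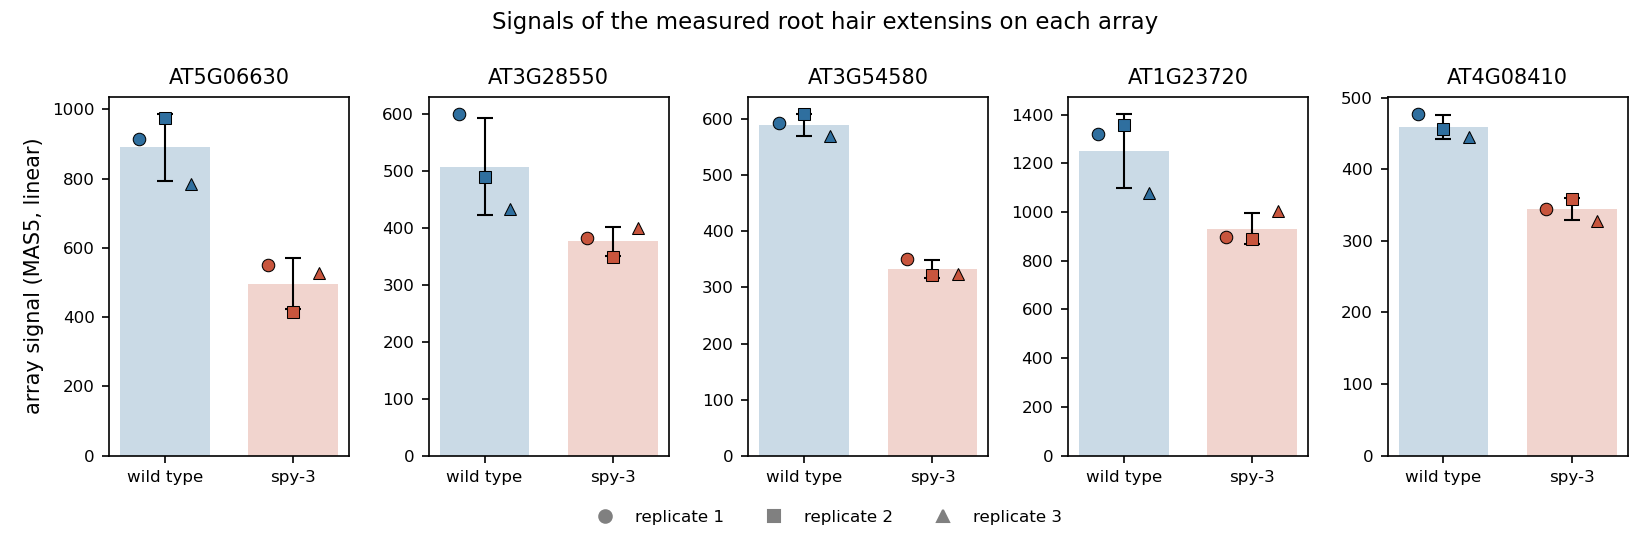
Array signal (MAS5, linear scale) of the 5 measured root hair extensins, by genotype. Bars are means of 3 arrays, error bars are SD and each symbol is 1 array. Every spy-3 symbol lies below every wild type symbol of the same gene, with the smallest gap, 34.9 signal units, at AT3G28550.

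AT5G06630 and AT3G54580 had log2 fold changes of -0.85 and -0.83, and AT1G23720, AT3G28550 and AT4G08410 had log2 fold changes of -0.42, -0.42 and -0.42. That of AT3G28550 ranged from -0.53 to -0.29 when 1 array was left out.

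AT3G54580 showed the clearest difference. Its signals were 593.1, 609.3 and 570.3 in wild type and 351.6, 322.5 and 323.7 in spy-3. The means were 591 ± 19.6 (SD, n = 3) and 333 ± 16.5 (SD, n = 3), a 1.78-fold decrease (log2 standard error 0.05, limma adjusted p = 0.00083). In limma it was the only member past the thresholds of the paper, a fold change of 1.5 with an adjusted p of 0.01. Of all probe sets, 0.800% passed these in the lower direction in limma. The paper set its thresholds on an analysis of variance, and by the one run here the adjusted p of AT3G54580 was 0.0151, which misses 0.01. The difference passed an adjusted p of 0.05 in each of 15 alternative treatments of the data. Averaging the probe sets of a gene, 1 of the 15, leaves the signals of every member as they were, because no member has several.

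AT5G06630 had signals of 913.7, 974.2 and 784.6 in wild type and of 550.0, 414.1 and 525.8 in spy-3. Wild type replicate 3 and spy-3 replicate 2 were the low arrays of their genotypes, and the lowest wild type signal still exceeded the highest spy-3 signal by 234.6. The fold decrease was 1.80, about as large as that of AT3G54580, but the arrays of a genotype were more spread out (log2 standard error 0.13, limma adjusted p = 0.0154). This call was lost in 6 of the 15 alternatives. Among them were leaving out wild type replicate 1 (adjusted p = 0.0813), wild type replicate 2 (adjusted p = 0.0778) or spy-3 replicate 3 (adjusted p = 0.0596) and a fit with no variance trend (adjusted p = 0.0628), each in limma, and the analysis of variance (adjusted p = 0.0999). With 1 array left out its log2 fold change was -0.94 to -0.72.

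AT4G08410 decreased less but evenly. Its signals were 478.1, 455.9 and 444.7 in wild type and 344.9, 359.2 and 328.5 in spy-3, or 460 ± 17.0 (SD, n = 3) against 344 ± 15.4 (SD, n = 3). The decrease was 1.34-fold (log2 standard error 0.05, limma adjusted p = 0.00689) and passed in all 15 alternatives, with the weakest adjusted p at 0.0468.

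The other two members had fold changes close to that of AT4G08410 on less even arrays, and neither passed the test. AT1G23720 had signals of 1321.3, 1358.0 and 1077.2 in wild type and 899.1, 889.6 and 1005.5 in spy-3 (log2 standard error 0.10, limma adjusted p = 0.0673). The narrow side of its gap was set by wild type replicate 3, and without that array the log2 fold change was -0.53 (limma adjusted p = 0.0258). AT3G28550 had signals of 600.7, 488.5 and 433.9 in wild type and 382.2, 348.6 and 399.0 in spy-3 (log2 standard error 0.12, limma adjusted p = 0.12). Its pooled SD within a genotype was 0.18 on the log2 scale, against 0.06 for AT4G08410 and 0.06 for AT3G54580, so a fold change of the same size passed for 1 gene and not for the other.

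**Figure D2:**
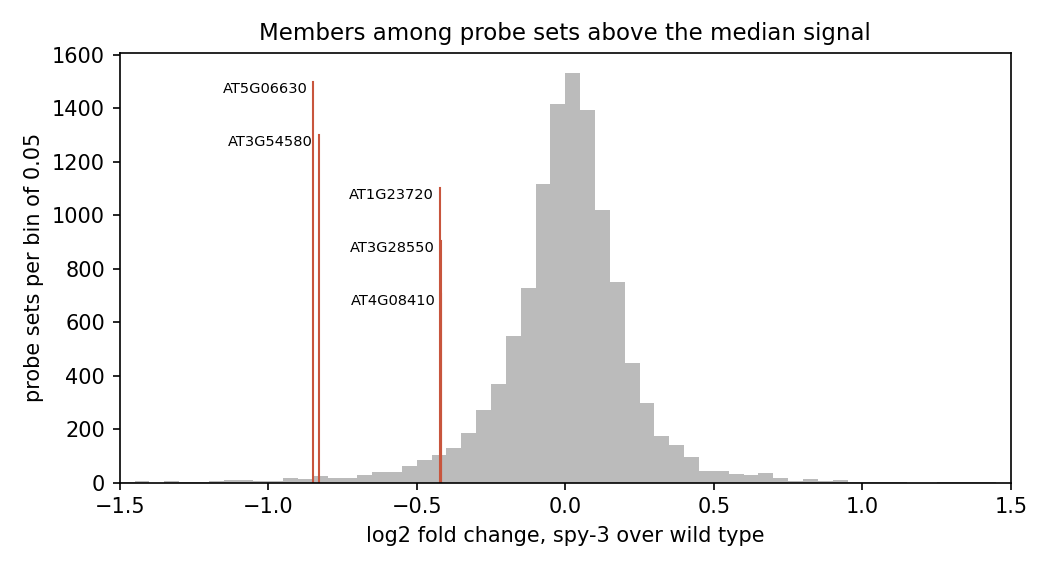
Distribution of log2 fold changes (spy-3 over wild type) over the 11373 probe sets above the median mean log2 signal, in bins of 0.05, with a line at each measured extensin. The axis ends at 1.5 in both directions and leaves out 16 probe sets. AT5G06630 and AT3G54580, at -0.85 and -0.83, lie farther left than the other members, at -0.42.

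Placed among the 11373 probe sets of above-median brightness, 0.827% had a more negative log2 fold change than AT5G06630 and 0.932% than AT3G54580. For AT3G28550, AT1G23720 and AT4G08410 the shares were 4.03%, 4.01% and 4.08%. The members therefore sat inside the outer part of the distribution, not beyond it.

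Whether the members differed in the size of their fold change was compared in 10 pairs, each by the difference of their log2 signals on the same array. In 6 pairs these differences did not overlap between the genotypes, and these were the 6 pairs that set AT5G06630 or AT3G54580 against 1 of the other three genes. The log2 fold change of AT3G54580 was more negative than that of AT4G08410 by 0.41, stated as a signed difference of -0.41 (standard error 0.06). For AT5G06630 against AT1G23720 the signed difference was -0.43 (standard error 0.12). Between AT5G06630 and AT3G54580 it was -0.02 (standard error 0.12). Each of the 6 pairs gave a two-sided exact permutation p of 0.1, or 0.167 after adjustment over the 10 pairs. Since 0.1 is the smallest p that 3 arrays against 3 allow, no pair could pass. This test therefore cannot decide whether the members differed in size, and the differences above are given as a description.

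Within a genotype the members mostly shared their low array. Wild type replicate 3 gave the lowest wild type signal for all 5 members, whereas it was the lowest wild type array for 38.1% of the probe sets above the median signal. The margin was small for AT4G08410 (444.7 against 455.9 in replicate 2) and AT3G54580 (570.3 against 593.1 in replicate 1). In spy-3, replicate 2 was the lowest array for 4 of the 5, AT4G08410 being lowest in replicate 3, while replicate 2 was the lowest spy-3 array for 33.9% of those probe sets. For AT3G54580 (322.5 against 323.7 in replicate 3) and AT1G23720 (889.6 against 899.1 in replicate 1) it was lowest by little. The other measured genes of root hair growth mostly had other low arrays. Of these 6 genes, 4 were lowest in wild type replicate 1, 1 in replicate 2 and 1 in replicate 3. In spy-3 4 were lowest in replicate 1 and 2 in replicate 2. XTH26 was lowest in wild type replicate 3 and spy-3 replicate 2, as most extensins were.

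**Figure D3:**
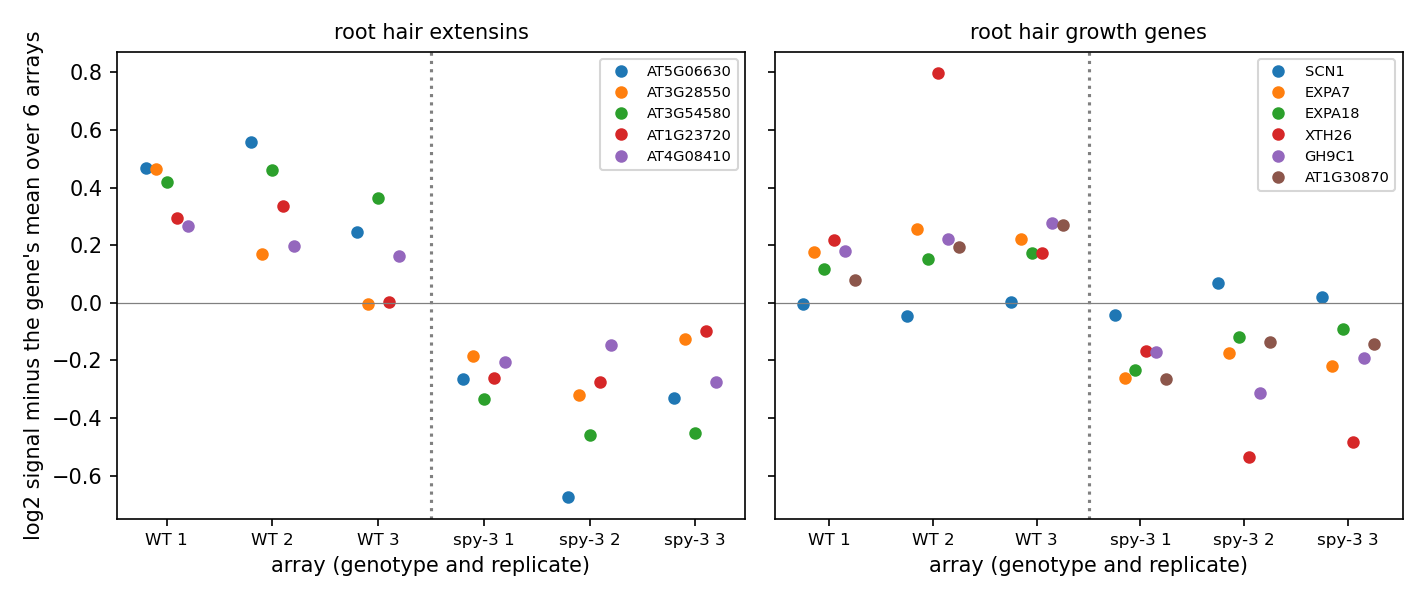
Log2 signal of each gene on each array minus its mean over the 6 arrays, for the 5 measured root hair extensins (left) and the 6 measured genes of root hair growth (right). Each point is 1 gene on 1 array and replicates have no order. The extensins are lowest among wild type arrays in replicate 3, and all of them are lower in spy-3.

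Probe sets for extensins need care, because the repeats of these proteins make their genes alike in sequence. The probe sets of AT5G06630, AT1G23720 and AT4G08410 carry the suffix _x_at, which the manufacturer gives to sets with probes that may also bind other transcripts, and those of AT3G54580 and AT3G28550 do not. Of the 3 with the suffix 2 were called lower, and of the 2 without it 1 was called lower, so calls occurred in both kinds. Over the whole array 5 of 126 probe sets with this suffix were lower (3.97%), and the median log2 fold change of the 126 was -0.09. Among those 5 are the probe sets of AT5G06630, AT4G08410 and HRGP1 (AT3G54590), so this share is not a background separate from the extensins. Signal shared between paralogs was not tested, and the members cannot be taken as 5 independent measurements. Some of the genes have relatives close by. AT5G06630 is next to AT5G06640, which is not analysed here, and AT3G54580 is next to HRGP1. AT4G08410 and AT4G08400 have 1 protein-coding gene between them and share another probe set, whose signals were 56.2, 56.3 and 50.1 in wild type and 35.3, 45.5 and 44.9 in spy-3 (limma log2 fold change -0.38, adjusted p = 0.279).

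The wider family of extensins and leucine-rich repeat extensins (LRX proteins, which join a leucine-rich repeat domain to an extensin domain) was mixed. Of 23 listed genes outside the members 16 were measured, of which 2 were lower, none higher and 14 not called. HRGP1 (AT3G54590), a hydroxyproline-rich glycoprotein, had signals of 2035, 2063.6 and 1737.5 in wild type and 1419, 1233 and 1228.1 in spy-3. Its log2 fold change was -0.59 (limma adjusted p = 0.0151), again with wild type replicate 3 as the lowest wild type array and again from a probe set with the suffix _x_at. AT3G22800, listed as an LRX gene, had signals of 200.2, 225.1 and 226.4 in wild type and 152.5, 164.1 and 162.6 in spy-3 (limma log2 fold change -0.44, adjusted p = 0.0182). In contrast, AT3G24480, another LRX gene of the list, had 50.6, 69.8 and 65.9 in wild type against 78.1, 81.6 and 86.4 in spy-3 (limma log2 fold change 0.41, adjusted p = 0.199). No other gene of the 16 had every spy-3 signal above every wild type signal. Every spy-3 signal was below every wild type signal for 4 of the 16, HRGP1 and AT3G22800 among them. Over all probe sets this share was 11.5%. Of the 16, 10 had a mean signal of 30 or less, and the median log2 fold change of the 6 brighter ones was -0.36, against -0.22 for the 16. Leaving out any 1 array reduced the count of lower genes. It was 1 without wild type replicate 1, wild type replicate 3 or spy-3 replicate 1. It was 0 without wild type replicate 2, spy-3 replicate 2 or spy-3 replicate 3. Over all probe sets the number lower also fell, from 712 to between 312 (without wild type replicate 2) and 496 (without spy-3 replicate 1).

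Genes for the modification and crosslinking of extensins were mostly not called. The list holds prolyl hydroxylases, which make the hydroxyproline, glycosyltransferases, which attach sugars, and peroxidases, which crosslink the tyrosines. Of 26 listed genes 14 were measured, and 1 was lower, none higher and 13 not called. AT3G28490 and AT4G35820 had signals of 0.9 to 7.3 and 0.6 to 6.9, too dim for their fold changes to be read. The other 12 had a median of -0.07 on the log2 scale, in a range of -0.33 to 0.24. Of the 14, 3 had every spy-3 signal below wild type and 3 had every one above it, the dim AT3G28490 among the latter. Over all probe sets 11.5% were wholly below wild type, and the share wholly above was not computed, so these counts are a description only. The gene called was AT4G26010, listed among the peroxidases, with signals of 2698.2, 2680.2 and 2511.9 in wild type and 2109.6, 2149.2 and 2032.4 in spy-3 (limma log2 fold change -0.33, adjusted p = 0.0106). This call was absent without wild type replicate 1, wild type replicate 2 or spy-3 replicate 3, which left 0 genes lower. XEG113, an arabinosyltransferase, gave 816.4, 810.9 and 830.6 in wild type against 826.0, 872.1 and 782.0 in spy-3, and its log2 fold change was 0.01 with a standard error of 0.05. The prolyl hydroxylase candidate AT5G18900 was wholly below wild type but not called (limma log2 fold change -0.11, standard error 0.04, adjusted p = 0.182). The same held for AT3G01720 (limma log2 fold change -0.13, standard error 0.03, adjusted p = 0.0831). AT1G20270 and AT3G57630 were wholly above wild type and not called either (limma log2 fold changes 0.24 and 0.11, adjusted p = 0.234 and 0.276). The standard errors of XEG113 and AT5G18900 were as small as those of the extensins that were called. That did not hold for the whole list. Among the 12 brighter genes the standard error reached 0.24, so a gene not called here need not be unchanged.

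Most of the other measured genes of root hair growth were lower as well. Only 6 of 46 listed genes were measured, and 4 of them were lower, none was higher and 2 were not called. The median over the 6 was -0.40 on the log2 scale. EXPA7, an expansin that loosens the wall of the emerging hair, had signals of 913.3, 966.3 and 943.7 in wild type and 674.6, 717.0 and 694.5 in spy-3 (limma log2 fold change -0.44, adjusted p = 0.00274). The related expansin EXPA18 had 1160.6, 1188.8 and 1207.7 against 911.7, 985.8 and 1005.4 (limma log2 fold change -0.29, adjusted p = 0.018). GH9C1, a glycosyl hydrolase of the wall, had 793, 816.3 and 848.2 against 622.6, 564.3 and 613.1 (limma log2 fold change -0.45, adjusted p = 0.00553). For these genes too the genotypes did not overlap, and their log2 fold changes lay between -0.45 and -0.29.

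AT1G30870, another of the listed genes of root hair growth, was also lower (limma log2 fold change -0.36, adjusted p = 0.025). XTH26, a xyloglucan-modifying enzyme, was dim, with 49.5, 74.1 and 48.0 in wild type against 37.9, 29.4 and 30.5 in spy-3, and was not called (limma log2 fold change -0.79, adjusted p = 0.12). SCN1, which restricts the site of hair outgrowth, had overlapping signals of 1241.3 to 1281.8 and 1244.1 to 1341.4. The count of lower genes fell to 2 without wild type replicate 2, wild type replicate 3 or spy-3 replicate 2.

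**Figure D4:**
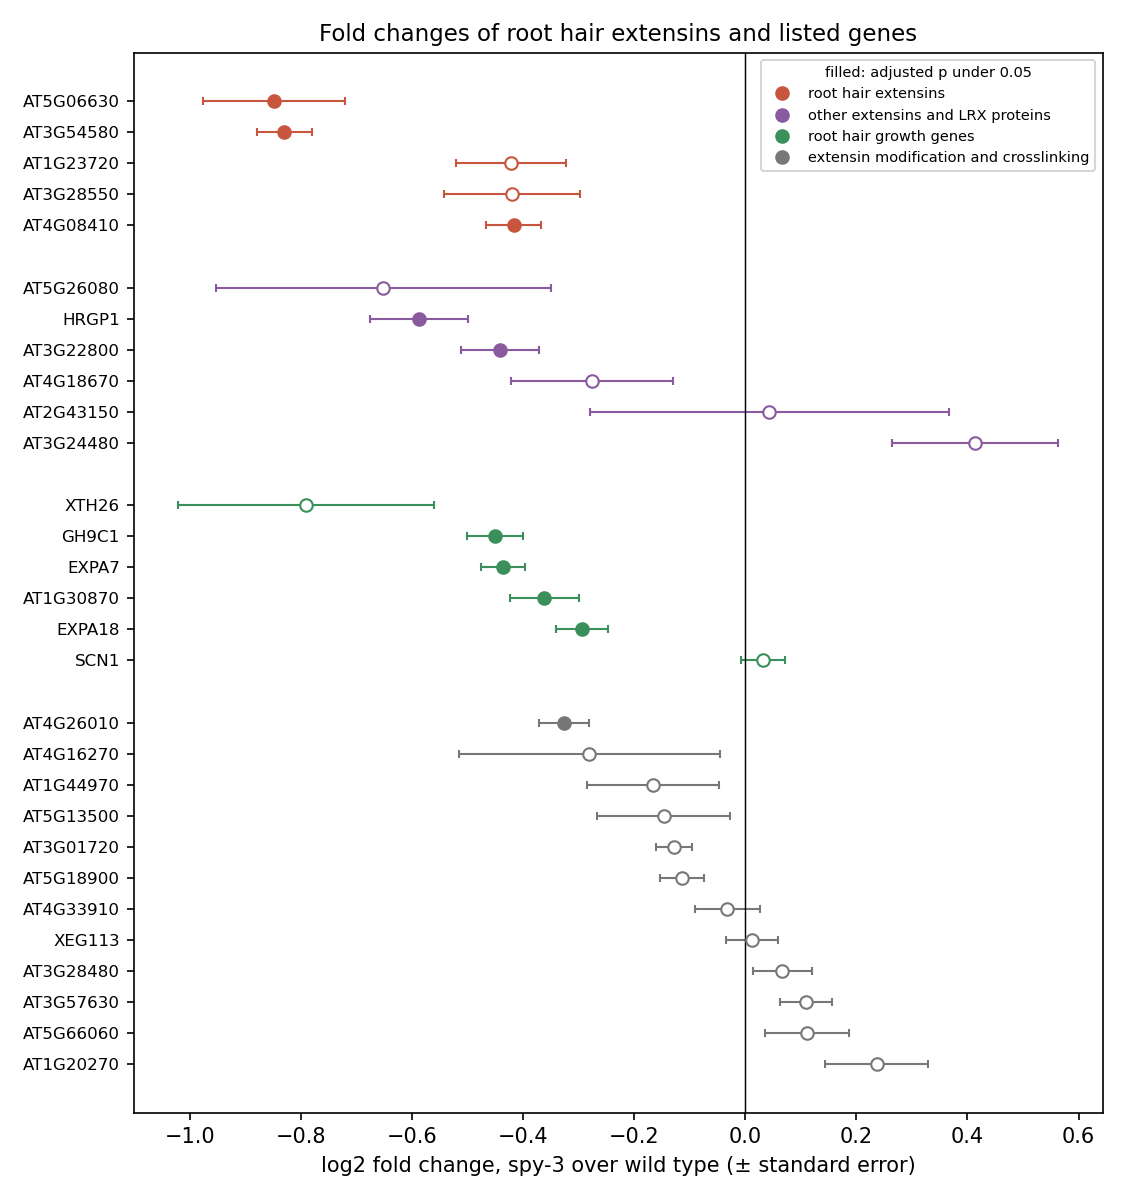
Log2 fold change (spy-3 over wild type) with its standard error from limma for the 29 genes of 4 lists with a mean signal above 30. Filled symbols passed an adjusted p of 0.05. All root hair extensins lie left of 0, and AT3G24480, at 0.41, lies right of it without passing.

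Because whole roots were used, fewer root hair cells and less extensin RNA in each such cell cannot be told apart. The regulators of hair fate gave little information. Of 12 listed transcription factors of root hairs 2 were measured, AT2G14760 with signals of 0.6 to 4.9 over all arrays and TRY with 18.3 to 37.7, and none of the 6 listed genes of non-hair epidermis was measured. Some markers of other tissues differed on the same arrays. The summed signal of the 3 measured green tissue markers, of 10 listed, was 436.5 to 478.6 in wild type and 293.5 to 326.6 in spy-3. Most of this sum was RCA, the Rubisco activase, with 432, 419 and 436.9 in wild type and 295.6, 301.3 and 271.8 in spy-3. RCA was lower (limma log2 fold change -0.57, adjusted p = 0.0027). SBPASE and PRK were dim, at 2.6 to 33.3 and 1.3 to 13.7, and overlapped between the genotypes. The 4 cortex markers summed to 643.8 to 703 and 615.5 to 688.1, but these sums hide opposite differences. AT5G02000 was higher (limma log2 fold change 0.83, adjusted p = 0.00822). AT1G62500, with 56.2, 59.5 and 57.5 in wild type against 19.2, 34.6 and 17.3 in spy-3, was not called (limma log2 fold change -1.35, adjusted p = 0.0517). AT1G09750 was also below wild type on every spy-3 array without passing (limma log2 fold change -0.19, adjusted p = 0.1), and AT1G62510 overlapped. The single measured markers of endodermis and meristem, GSO1 and AUR1, had log2 fold changes of 0.00 and 0.05. The summed signal of the 5 extensins was 3311 to 3907 in wild type and 2334 to 2583 in spy-3. The part of any other tissue in the extensin result was not tested, and markers of xylem, phloem and root cap are not analysed here.

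The genes whose profile over the 6 arrays was most like the mean of the extensins were found by the root mean square difference of centred log2 signals, among 5960 other genes above the median signal. The nearest 5 were AT2G46220, AT3G48970, AT5G48430, AT1G52200 and AT5G27410, at differences of 0.04, 0.04, 0.05, 0.06 and 0.06 on the log2 scale. The extensins themselves differed from their own mean by 0.105 to 0.162, so these 5 genes, picked out of many, lay nearer to the mean profile than its members did. AT2G46220 had signals of 392.8, 389.3 and 342.3 in wild type and 270.3, 234.6 and 267.3 in spy-3 and shared the low wild type replicate 3 and the low spy-3 replicate 2. AT1G52200 had 2453.8, 2356.9 and 2326.1 against 1673.9, 1491.5 and 1617.0. None of the 5 is in the lists of root hair genes used here.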

How the data were processed

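Total RNA of 6 root samples was hybridised to Affymetrix ATH1 arrays. The authors deposited 1 linear intensity per probe set, made with MAS5 by the submitters' processing notes. Detection calls were not used, and its settings are not stated. Arrays had been scaled to a common mean, so brightness differences between arrays cannot be read. Precision is limited by the number of arrays.

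A floor of 1 was applied, then log2, with no filter. No member signal was under 1. The test was limma 3.58.1 (R 4.3.3, lmFit and trended eBayes), adjusted after Benjamini and Hochberg over 22746 probe sets. The scripts were tested on simulated data. "Called", "lower" and "higher" mean an adjusted p of 0.05. Python 3.11.15 and pandas 2.3.3 handled tables and matplotlib 3.10.9 drew the plots.

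Of 13513 probe sets annotated to 1 gene, 13436 matched a RefSeq locus tag (TAIR10.1, used for names and gene order only). The brightest probe set stood for a gene, and no listed gene had several. Genes were named by a rule: all measured members, up to 6 called genes of each list, markers needed by a sentence, and the 5 nearest profiles. AT3G24480, XEG113, AT5G18900, AT3G01720, AT1G20270, AT3G57630, AT3G28490, AT4G35820, XTH26, SCN1 and the shared probe set were added after their values were seen. The members and lists were chosen with earlier results of these data known. The methods name an analysis of variance, which was run per probe set as an alternative, beside other normalizations, offset, filter, variance models, the replicate number as a block, thresholds, the mean of several probe sets and leaving out arrays.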

Additional observations from a re-analysis of the deposited data

How the results depend on the processing

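The median log2 fold change of the 5 extensins was -0.53 (without wild type replicate 3) to -0.39 (without wild type replicate 1) when 1 array was left out. The sign could not turn there, since the genotypes do not overlap, and 6 of the 15 alternatives leave the fold changes as they are. The number called lower, 3, was 5 after dropping the dimmest 40% of probe sets (fewer tested) or with robust variances. It was 1 at the paper's thresholds when these were set on the limma fit. It was 2 to 4 when 1 array was left out, and none was higher in any of them. AT1G23720 also passed with median centring, an offset of 16, the dim filter or robust variances (adjusted p = 0.00767 to 0.0367 from limma). AT5G06630 did not pass without the trend (adjusted p = 0.0628 from limma) or by the analysis of variance (adjusted p = 0.0999). Without the trend and by the analysis of variance, the lower genes of root hair growth were 2 and 2 in place of 4, the other extensins and LRX genes 0 and 0 in place of 2, and the modification genes 0 and 1. At the paper's thresholds, set on the limma fit, these lists had 0. Leaving out 1 array gave 2 to 3, 0 to 1 and 0 to 1. The cause of these differences was not tested. Over all probe sets 1312 calls became 642 without the trend and 658 by the analysis of variance, and 515 to 869 when 1 array was left out.

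Replicate numbers were not taken as pairs: deviations of same-numbered arrays correlated at 0.18, -0.15 and 0.18. With the replicate block 2 extensins were lower (adjusted p = 0.0639 for AT5G06630 from limma), and 391 probe sets were lower and 265 higher in place of 712 and 600.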
